A study of Drosophila melanogaster with 8 samples.

Results

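Male prepupae of Drosophila melanogaster mutant for both bap170 and bap180 were compared with wild type males at the start of metamorphosis. The comparison rests on 4 of the 8 arrays of the study, chosen by their titles: 2 arrays of bap170;bap180 double mutant males and 2 of wild type males. The wild type was w1118. The gene bap180 is now named polybromo, and the labels used here give no alleles. All animals were white prepupae at 0 hours after puparium formation (APF), and each array held RNA of a single whole animal, hybridised to a 1-colour Affymetrix array. The other 4 arrays, of females of the same genotypes and age, entered the estimate of the spread and are quoted where a male difference is set beside the female one. A single animal per array means that p-values measure only the spread between these individual prepupae, and with 2 per group that number limits the precision. In whole animals, fewer cells of a type and less RNA per cell cannot be told apart.

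Bap170 and polybromo are subunits found in PBAP, one of the forms of the Brahma (SWI/SNF) complex, which uses ATP to move nucleosomes and so changes the access of transcription factors to DNA. The white prepupa is the stage at which a pulse of the steroid hormone 20-hydroxyecdysone has ended larval life: the glue made by the salivary glands has been expelled, the larval cuticle is turning into the puparium, and larval tissues such as the midgut and salivary glands are about to be broken down. In males the testis at this stage already holds spermatocytes, which transcribe a large set of genes used later in sperm formation.

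All values below are log2 intensities, and a difference is double mutant minus wild type. Differences are given ± the standard error (SE) of a limma fit with n = 2 arrays per group. A gene is called when its adjusted p (Benjamini-Hochberg over 18769 probe sets) is under 0.05. Levels near the array medians, which lay between 5.05 and 5.13 in males, are mostly background, so that differences reaching them are compressed. The sex labels were checked on dsx, whose probe set lay between 3.43 and 3.55 on the 4 male arrays and at 7.06 or more on the female arrays. msl-2, which male flies need for dosage compensation, lay between 5.97 and 6.39 in males and between 5.15 and 5.39 in females. The 7 Y-linked genes measured were at background in both sexes, with no median above 3.77 on any array, and do not check the labels.

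Bap170 and polybromo transcripts were lower in the mutant males. Bap170 read 6.88 and 7.31 in the wild type males and 5.98 and 6.09 in the mutants, a difference of -1.06 ± 0.17 (limma adjusted p = 0.0425, 2.09-fold). polybromo read 5.09 and 5.49 in wild type and 4.27 and 4.11 in the mutants, a difference of -1.10 ± 0.18 (adjusted p = 0.0448, 2.14-fold). The mutant males lay below the array medians of 5.05 to 5.13, taken as near background, so this fold understates any larger change. In females polybromo fell by 2.16 ± 0.18 (adjusted p = 0.00364, 4.47-fold). The male groups did not overlap for either gene. Both male calls lay close to the threshold: the call of Bap170 held without replicate 1 of the wild type males and ended without any other single array (adjusted p up to 0.12). That of polybromo ended whichever array was left out (adjusted p up to 0.165). The other 9 measured subunits of the Brahma complexes had no call, and the median over all 11 was 0.31, against 0.02 over all genes.

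In males 197 of 18769 probe sets were called (1.05%), 92 higher and 105 lower in the mutants, and 2467 had an unadjusted p under 0.05. Counted as genes with 1 representative probe set each, 163 of 11982 were called (1.36%). Of these, 72 were higher (0.601% of all genes) and 91 lower (0.759%). The mutant and wild type males did not overlap for any of the 163. That alone is a weak mark, since 2815 genes (23.5%) had both mutants above both wild types and 2326 (19.4%) had both below. The difference was at least 2-fold for 152 called genes and at least 4-fold for 56, of which 22 were higher and 34 lower. The smallest called rise was 0.85 and the smallest called fall -0.72. Genes known only by a CG or CR number made up 77 of the 163 (47.2%), close to their 43.6% among all genes. For every list of genes below, 1.36% is the share of all genes called.

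Single animals weighed heavily on this count. Each fit without 1 array left a single animal in 1 group, so the spread within that group did not enter its SE or p-values. Calls that appear only in such a fit describe the remaining animals. Without replicate 1 of the wild type males 105 probe sets were called, and without replicate 1 of the mutant males 272, of which 185 were lower. Leaving out replicate 2 of the mutant males turned the balance, with 100 called higher and 60 lower. Omitting a female array, which changes only the estimate of the spread, gave 122 to 126. Of the 163 genes, 46 kept their call whichever of the 8 arrays was left out, 14 higher and 32 lower. A fit on the 4 male arrays alone called 17 genes, 16 of them among the 163. Those 16 were also called in each of 17 alternative fits to all probe sets. The 7 that rose were CG33093, GILT3, CG30286, CG10353, fusl, plum and Cbl. The 9 that fell were LysX, CG42846, CG15905, CG11865, Jhbp7, Jon65Aii, hpRNA:CR33940, CG31522 and CG7675. The last 2 and Cbl were named after their values were seen.

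Among the rises that held in all these fits, those of GILT3, CG33093, CG30286, CG10353 and plum began near background in wild type males. GILT3, named for the lysosomal thiol reductase GILT, read 4.96 and 5.47 in the wild type males and 9.35 and 9.38 in the mutants. The rise was 4.15 ± 0.18 (limma adjusted p = 0.000419, 17.8-fold), and the nearest mutant and wild type arrays lay far apart. No other member of its family was called: GILT1 differed by 0.05 ± 0.17 and GILT2 by -0.02 ± 0.21, neither called. CG33093 read 4.60 and 3.96 in wild type and 8.41 and 8.77 in the mutants, a rise of 4.31 ± 0.25 (adjusted p = 0.000753, 19.9-fold). CG30286 was at background in wild type, 3.93 and 3.92, and read 7.26 and 7.27 in the mutants (3.34 ± 0.19, adjusted p = 0.000753). In GILT3, CG33093 and CG30286 the mutant males differed from each other by far less than from wild type.

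fusl, plum and Cbl were among the same rises. fusl encodes fuseless, a membrane protein of the presynaptic terminal. Its levels were 6.52 and 6.75 in wild type and 9.35 and 9.32 in the mutants (2.70 ± 0.14, adjusted p = 0.000548). plum, an immunoglobulin superfamily protein that acts in remodelling of neurons, went from 4.68 and 4.91 to 7.37 and 7.28 (2.53 ± 0.17, adjusted p = 0.00192). Neither gene's arrays overlapped. Of 12 measured neuronal markers none was called, and their median difference was 0.12. Median levels of these markers were 4.68 and 4.82 in the wild type males and 4.72 and 4.83 in the mutants. These are near background, so the missing calls say little about the markers. Cbl, a ubiquitin ligase that damps receptor tyrosine kinase signalling, read 7.29 and 7.38 in wild type and 9.35 and 9.42 in the mutants (2.05 ± 0.17, adjusted p = 0.00385). The 8 measured genes of the Egfr pathway had no call, with a median of 0.08.

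The rises with the highest fold were less steady. CG10799 had the largest rise of all, from 4.33 and 4.52 to 11.87 and 8.65 (5.83 ± 0.94, adjusted p = 0.0466). The mutant males lay more than 8-fold apart, and the call ended without either wild type male or any one female array (adjusted p up to 0.191). MtnC, one of the metallothioneins that bind copper and other metals, read 5.19 and 6.45 in wild type and 10.89 and 10.82 in the mutants. Its rise of 5.04 ± 0.64 (adjusted p = 0.019, 32.8-fold) was not called without replicate 1 of the wild type males (adjusted p = 0.0899) or replicate 2 of the mutants (0.0655). No other metallothionein was called. MtnB read 9.73 and 10.38 in wild type and 8.64 and 7.19 in the mutants (-2.14 ± 0.55, adjusted p = 0.165). MtnA differed by -0.73 ± 0.30 and MtnD by -0.03 ± 0.36, neither called.

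vis (vismay), a homeodomain protein that with its tandem copy achi is needed for transcription in spermatocytes, was also among the rises. It read 5.01 and 5.64 in the wild type males and 8.11 and 7.85 in the mutants (2.65 ± 0.23, adjusted p = 0.00499). The call held whichever array was left out. The separate probe set of achi had no call (-0.41, adjusted p = 0.28) and lay at background, between 3.43 and 3.93. The 2 genes are near-identical copies, so how far each probe set reads the other is uncertain. In females vis was called as well, with levels of 3.83 and 3.61 in wild type and 5.26 and 5.53 in the mutants.

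The remaining large rises were CG10650 (2.45 ± 0.24) and CG10353 (2.98 ± 0.18), whose calls held without any one array, and CG5084, CG7296, CG12290, CG17108 and CG15404, between 2.41 and 2.98. The call of CG7296 ended without replicate 1 of the wild type males (adjusted p = 0.0631), and so did that of CG15404 (0.0675). Those of CG5084 and CG12290 ended without either wild type male or without replicate 2 of the mutants (adjusted p up to 0.0829), and that of CG5084 also without either wild type female. CG17108 kept its call only without replicate 2 of the wild type males (adjusted p up to 0.122 otherwise).

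**Figure D1:**
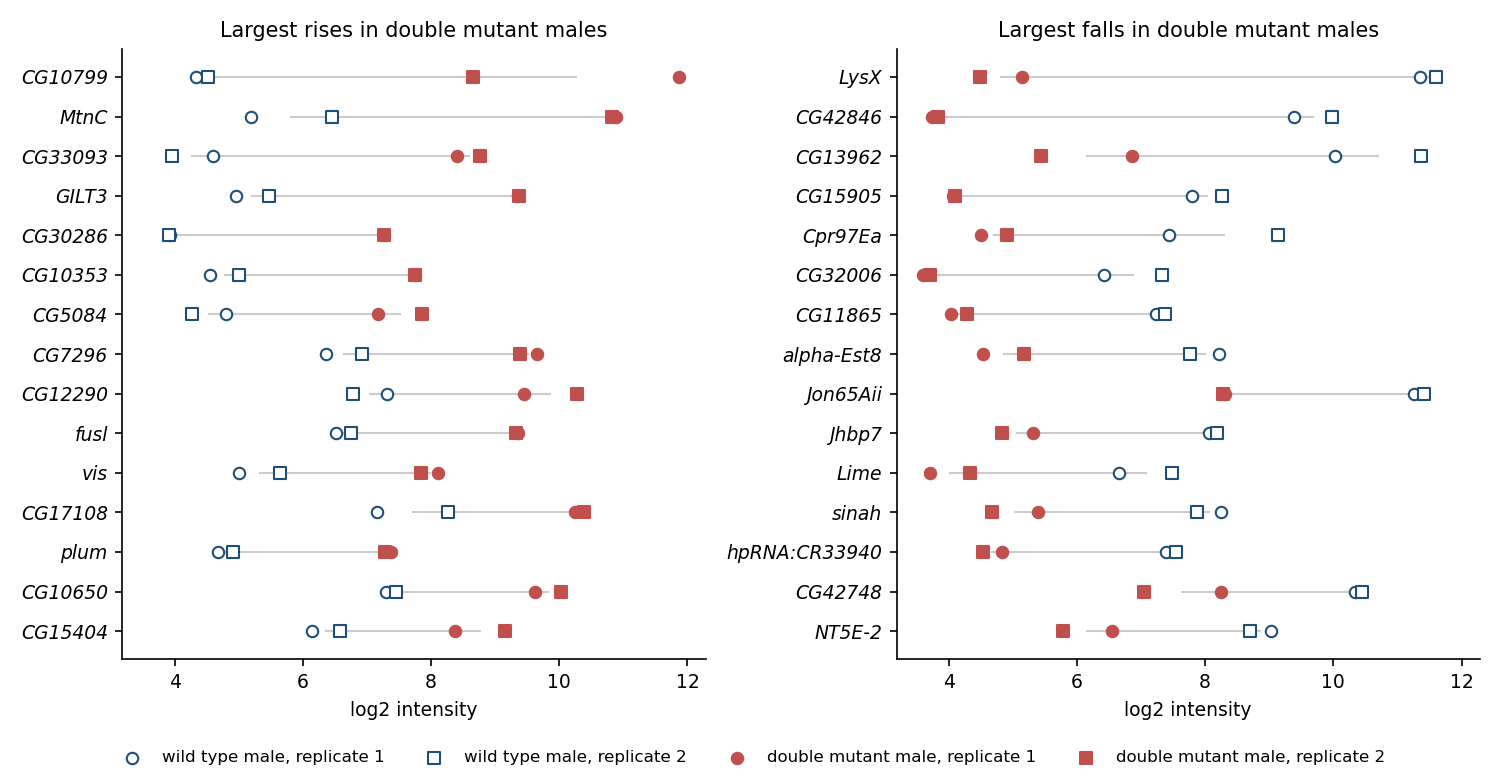
Log2 intensity on each of the 4 male arrays for the 15 largest rises (left) and the 15 largest falls (right) among called genes, ordered by size; open symbols are wild type, filled symbols double mutant, circles replicate 1 and squares replicate 2, and grey lines join the group means. The wild type and mutant symbols are apart for all 30 genes, and the mutant males of CG10799 lie at 11.87 and 8.65.

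The largest fall was that of a lysozyme. LysX, of an enzyme family that cleaves bacterial cell walls and in flies is made mainly in the gut, read 11.35 and 11.60 in the wild type males and 5.15 and 4.48 in the mutants. The mutants were thus at background where wild type males were among the bright probe sets, a difference of -6.66 ± 0.35 (limma adjusted p = 0.000548, 101-fold). The other lysozymes measured had no call: LysP differed by 0.73 ± 0.27 and LysS by -0.76 ± 0.41. CG42846 was the next largest fall, from 9.38 and 9.98 to 3.74 and 3.83 (-5.89 ± 0.21, adjusted p = 0.000373, 59.4-fold). CG15905 fell from 7.80 and 8.26 to 4.07 and 4.10 (-3.94 ± 0.25, adjusted p = 0.0011). For these 3 genes every mutant array lay below every wild type array by more than the whole spread within a group.

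Jon65Aii belongs to the Jonah serine proteases, digestive enzymes of the gut. It read 11.26 and 11.41 in wild type and 8.31 and 8.28 in the mutants (-3.05 ± 0.15, adjusted p = 0.000548), a fall that left it well above background. Of 13 Jonah genes it was the one called (7.69%, against 1.36% of all genes), and the median of the 13 was 0.47. Jon25Biii had no call and read 7.92 and 7.86 in wild type against 10.57 and 11.46 in the mutants (3.12, adjusted p = 0.0502). Leaving out either wild type female brought a call for Jon25Biii by changing the estimate of the spread alone. Jon65Aiii of the same cluster as Jon65Aii read 12.27 and 12.28 in wild type and 12.48 and 12.45 in the mutants. Jon65Aii was thus the one call in a family with 9 differences above 0 and 4 below. Both mutants lay above both wild types for 7 genes (53.8%, against 23.5% of all genes). They lay below both for 3 (23.1%, against 19.4% of all genes).

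Jhbp7, named for juvenile hormone binding proteins, read 8.06 and 8.19 in the wild type males and 5.31 and 4.83 in the mutants (-3.05 ± 0.19, adjusted p = 0.0011). It was the one called member of 20 juvenile hormone genes, whose median was -0.09. alpha-Est8, a carboxylesterase of the alpha-esterase cluster, fell from 8.21 and 7.76 to 4.53 and 5.18 (-3.13 ± 0.24, adjusted p = 0.00353). CG11865 went from 7.23 and 7.38 to 4.03 and 4.28 (-3.15 ± 0.16, adjusted p = 0.000548). Lime, a zinc finger protein known from work on immunity and metabolism in larvae, read 6.65 and 7.48 in wild type and 3.71 and 4.33 in the mutants (-3.05 ± 0.32, adjusted p = 0.00991). None of these arrays overlapped, and the 4 calls held whichever array was left out.

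hpRNA:CR33940, a hairpin RNA gene of the kind that yields endogenous small interfering RNAs, read 7.39 and 7.54 in wild type and 4.83 and 4.53 in the mutants (-2.79 ± 0.19, adjusted p = 0.00171). The other large falls ended under some omissions. CG13962 fell by 4.55 and was not called without either wild type female, replicate 2 of the wild type males or replicate 2 of the mutants (adjusted p up to 0.0871). CG42748 fell by 2.75 and was not called without any one wild type array (up to 0.0828); a dimmer probe set of this gene differed by 0.46 ± 0.19 (adjusted p = 0.375). NT5E-2, a nucleotidase, fell by 2.71 and was not called without replicate 1 of the wild type males (0.0631).

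Female differences were set beside the male ones. Of the 163 genes called in males, 86 were also called in females (52.8%), all with the same sign, and these were 58.9% of the 146 female calls (1.22% of all genes). The sign was the same in 149 of the 163 genes and opposite in 14. Median differences were 1.67 in males and 1.17 in females for the genes that rose in males, and -1.74 and -1.67 for those that fell. The genes were chosen by their male call, which favours the larger male value. GILT3 differed by 4.15 in both sexes and MtnC by 5.04 in males and 5.08 in females. LysX fell by 6.66 in males and by 5.92 in females. The test of the difference itself, the genotype by sex interaction, called no probe set in limma (0% of 18769), and 1184 had an unadjusted p under 0.05. Of the 163 genes 62 had such a p, 27 that rose and 35 that fell. Without replicate 2 of the mutant males the interaction called 20 probe sets of 17 named genes, 15 of them higher in the remaining mutant male, among them TotC, TotZ and lectin-24A.

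**Figure D2:**
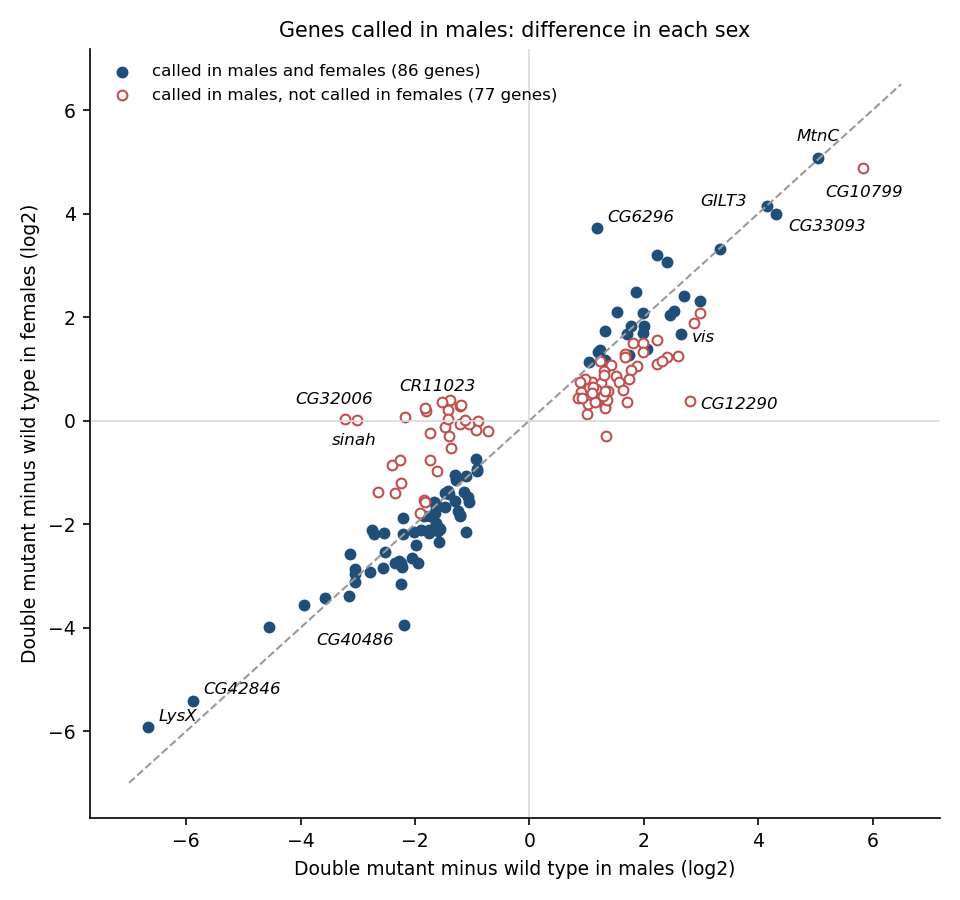
Double mutant minus wild type difference (log2) in males (horizontal axis) and in females (vertical axis) for the 163 genes called in males; filled points were also called in females and open points were not, and the dashed line marks equal differences. Most genes lie along the line, and a group of falls in males with values near 0 in females, such as CG32006 and sinah, lies on the horizontal zero line.

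sinah and CG32006 fell in males and had low levels in females of both genotypes. sinah, a relative of the ubiquitin ligase gene sina, read 8.24 and 7.87 in the wild type males and 5.40 and 4.68 in the mutant males (-3.02 ± 0.26, limma adjusted p = 0.00437). On the female arrays it lay between 4.31 and 4.53 in both genotypes. CG32006 read 6.42 and 7.33 in wild type males and 3.60 and 3.71 in the mutants (-3.22 ± 0.28, adjusted p = 0.00469), with 3.64 to 3.83 on the female arrays. The mutant males were at the female level for CG32006 and just above it for sinah.

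The 5 genes with the lowest unadjusted interaction p among the male calls were CG6296, CR11023, CG4998, Ude and CG14974. CR11023 read 5.32 and 5.60 in wild type males and 3.57 and 3.69 in mutant males (-1.83 ± 0.14, adjusted p = 0.00368), and 3.48 to 3.81 in females. CG4998 read 4.87 and 4.90 against 3.47 and 3.44 (-1.43 ± 0.12, adjusted p = 0.00385), and 3.75 to 3.79 in females. CG14974 read 6.58 and 6.74 against 5.04 and 4.69 (-1.80 ± 0.16, adjusted p = 0.00506). In females CG14974 lay between 3.82 and 4.11, so that it stayed above the female level in mutant males. Ude, a protein that cleaves DNA holding uracil, read 5.72 and 5.87 against 4.39 and 4.15 (-1.52 ± 0.15, adjusted p = 0.008). Its female levels were 3.83 and 4.05 in wild type and 4.29 and 4.32 in the mutants.

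CG6296 went the other way and had the lowest interaction p of all. It read 3.9 and 4.0 in wild type males and 5.00 and 5.26 in mutant males, and 4.12 and 3.95 in wild type females against 7.76 and 7.74 in mutant females. The rise was 1.18 ± 0.14 in males and 3.72 in females, and the interaction of -2.54 ± 0.20 missed the threshold (limma adjusted p = 0.0917). For the other 4 genes the adjusted interaction p was 0.154. The male call of CG6296 ended without either wild type male or without replicate 2 of the mutants (adjusted p up to 0.0894), while the male calls of the other 4 held whichever array was left out.

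Genes of spermatocytes and spermatids read lower in the mutant males as a list, with no member called. The list holds 34 measured genes for sperm proteins and for testis forms of common enzymes. Of these, 32 had a difference below 0 and 22 had both mutant males below both wild types (64.7% against 19.4% of all genes). The median difference was -0.58, against 0.02 over all genes. The lowest adjusted p was 0.156, for betaTub85D, the tubulin of the sperm tail, which read 10.98 and 10.59 in wild type and 10.19 and 9.88 in the mutants (-0.75 ± 0.19). Its female levels were 4.35 to 5.13.

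The difference was uneven between the mutant males. Relative to the wild type male mean, the median of the list was -0.28 in replicate 1 of the mutants and -0.88 in replicate 2, and 0.11 and -0.11 in the wild types. With replicate 1 left out, so that replicate 2 stood alone for the mutants, 6 members were called lower: ocn, Mst84Dc, janB, ProtA, ProtB and Prosalpha3T. Without replicate 2 none was. ProtB, one of the protamines that pack DNA in sperm, read 7.76 and 7.13 in wild type and 6.97 and 5.70 in the mutants (-1.11 ± 0.40, adjusted p = 0.301). ProtA read 9.53 and 9.20 against 9.31 and 8.04 (-0.68 ± 0.37, adjusted p = 0.513), and janB 8.97 and 8.90 against 8.75 and 7.80 (-0.67 ± 0.28, adjusted p = 0.385). Testis forms of respiratory subunits followed the same order: COX7AL read 8.39 and 8.46 in wild type and 7.89 and 7.15 in the mutants, with 4.16 to 4.21 in females.

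COX7AL, COX4L and COX6CL were called lower without replicate 1 of the mutants, whereas the 69 respiratory chain genes as measured on all arrays had no call and a median of -0.12. Among 12 transcription regulators of spermatocytes vis was the one called, and the median was 0.07. Replicate 2 of the mutant males also scored 26.7 on the first principal component, which parts the sexes (60.6% of the variance), against 53.4 to 59.6 for the other males and -48.3 to -53.1 for females. Its actin 3' minus 5' control difference was 0.23, against 0.58 in the other mutant and 0.67 and 0.79 in wild type males. The part of these array differences in the spermatocyte values was not tested.

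**Figure D3:**
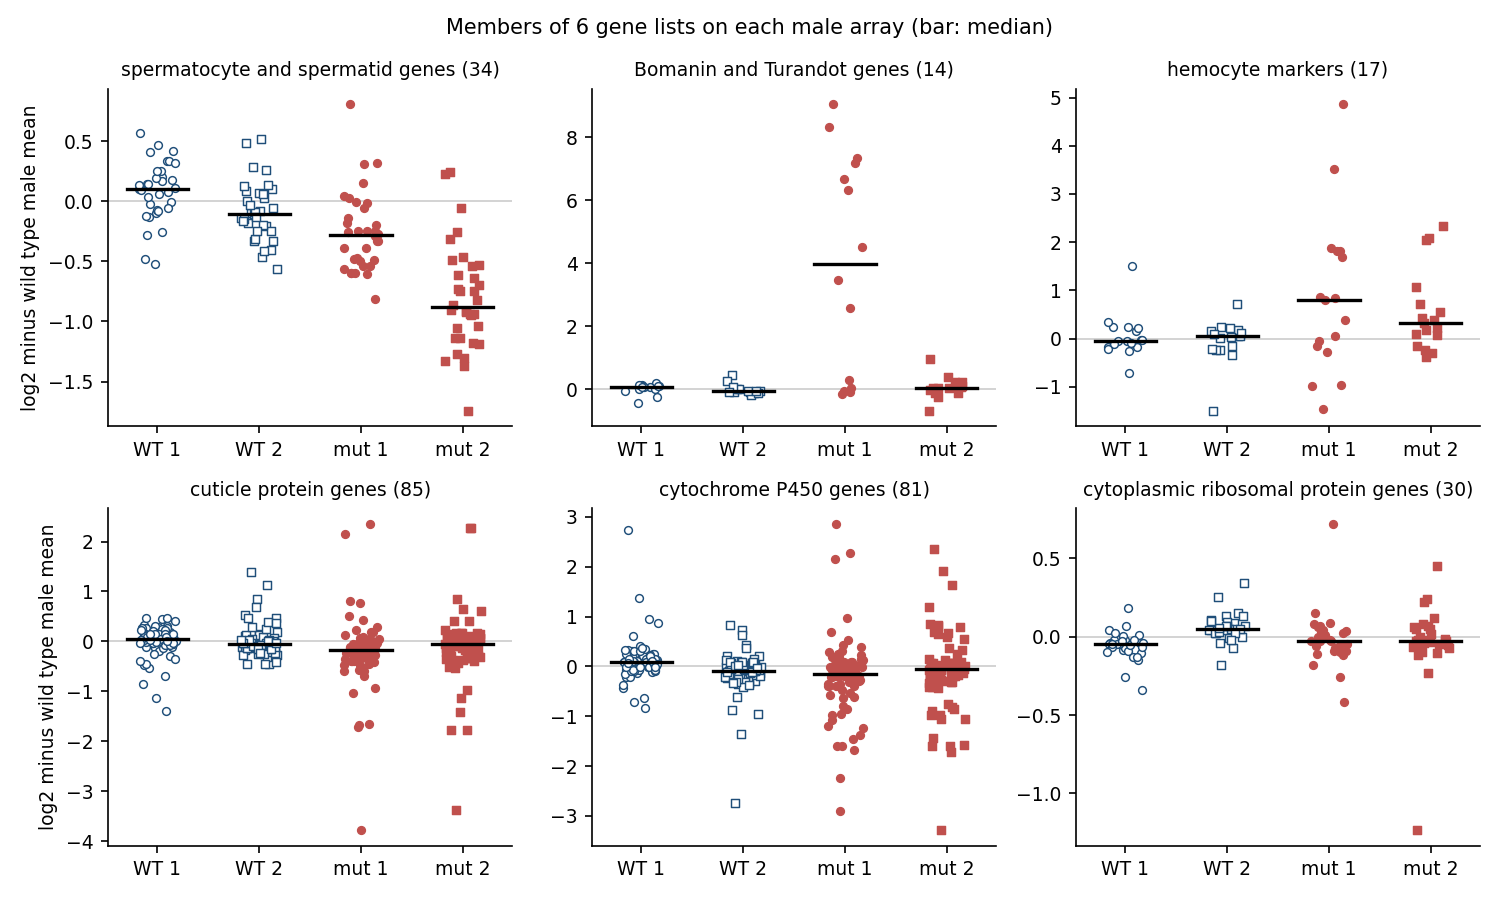
Each point is 1 gene of a list on 1 male array, as log2 intensity minus the mean of the wild type males; black bars are medians, numbers in the titles count the genes, and the vertical scale differs between panels. The spermatocyte and spermatid median is -0.28 and -0.88 in the mutant males, and the Bomanin and Turandot median is 3.99 in replicate 1 and 0.04 in replicate 2.

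Among genes of the ecdysone response, 1 of 14 receptors and early regulators was called (7.14%, against 1.36% of all genes). It was Hr96, a nuclear receptor of the response to toxins and of lipid balance. It read 6.78 and 7.0 in wild type and 7.82 and 7.77 in the mutants (0.90 ± 0.13, limma adjusted p = 0.0336), and the call ended whichever array was left out (adjusted p up to 0.139). The median of the 14 was 0.33, and Eip74EF, Eip75B and crol of this list were not measured. EcR, the ecdysone receptor, read 4.93 and 4.57 in wild type and 5.17 and 5.08 in the mutants, and br, the early regulator broad, 10.88 and 10.95 against 11.04 and 10.83. Neither was called. The 8 ecdysone effector genes and the 15 genes of ecdysteroid synthesis and turnover had no call, with medians of -0.14 and 0.05. Not measured were Ldh (also listed as ImpL3) and Eip63F-1 of the effector list and phm of the synthesis list.

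shd, the enzyme of the last step in making 20-hydroxyecdysone, differed between the mutants: 6.24 and 6.05 in wild type, 6.22 in replicate 1 and 8.29 in replicate 2. Without replicate 1 of the mutants the shd difference was 2.14. Of 9 late puff genes of the 71E cluster, Eig71Eg was the one called (11.1%), 10.93 and 11.12 in wild type against 9.27 and 9.50 in the mutants (-1.64 ± 0.24, adjusted p = 0.0345). That call ended without any one male array or wild type female (adjusted p up to 0.115). Eig71Ek of the same cluster read 3.45 and 3.91 in wild type and 7.37 and 6.61 in the mutants (3.32, limma adjusted p = 0.154). Leaving out either mutant female, which changes only the estimate of the spread, brought a call.

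The salivary glue genes, whose protein fixes the prepupa to its support, had no call among 11 and a median of -0.37. Of these, 10 had a difference below 0, and 6 had both mutants below both wild types (54.5%, against 19.4% of all genes). The 1 difference above 0 was 3.06, with both mutants above both wild types (9.09%, against 23.5% of all genes). The lowest p was that of Sgs1. It read 5.06 and 5.04 in wild type and 4.46 and 4.45 in the mutants (-0.60 ± 0.12, limma adjusted p = 0.0862), all near background. Sgs3 read 11.90 and 10.80 in wild type and 9.84 and 10.28 in the mutants. Sgs4 read 10.58 and 9.85 in wild type, 9.61 in replicate 1 of the mutants and 4.07 in replicate 2. Without replicate 1 of the mutants the Sgs4 difference was -6.15. In females Sgs4 read 9.51 and 9.35 in wild type and 4.20 and 3.92 in the mutants, a difference of -5.37 ± 1.5 (adjusted p = 0.255) with no call. Replicate 1 of the mutant males was thus the one mutant array on which Sgs4 was not at background.

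Calls among digestive genes went both ways, since Jon65Aii fell and 3 others rose. Of 19 genes of carbohydrate and lipid digestion 2 rose (10.5%, against 1.36% of all genes). They were Amyrel, a relative of amylase, and mag, the gut lipase magro. mag read 7.18 and 7.12 in wild type and 8.83 and 9.97 in the mutants (2.24 ± 0.33, adjusted p = 0.0336), and Amyrel 5.78 and 5.72 against 7.48 and 7.65 (1.81 ± 0.26, adjusted p = 0.0295). The median of the 19 was -0.02. Of 9 trypsins etaTry was the one called (11.1%). It rose from 5.15 and 5.55 to 7.50 and 6.69 (1.74 ± 0.27, limma adjusted p = 0.0401). All 3 calls ended without either wild type male or wild type female (adjusted p up to 0.178); those of mag and etaTry also ended without either mutant female, and that of Amyrel without either mutant male.

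In the fit on all arrays the called genes of chitin and cuticle were lower in the mutants, while some other members read higher without a call. Of 16 chitinases and chitinase-like growth factors 3 were called (18.8%, against 1.36% of all genes): Cht10, Cht4 and Idgf5, between -1.24 and -2.06. Cht10, a chitinase, read 10.81 and 11 in wild type and 9.63 and 9.70 in the mutants (-1.24 ± 0.14, limma adjusted p = 0.0144). Its call ended without replicate 2 of the wild type males (adjusted p = 0.0604) or of the mutants (0.0504). Cht4 and Idgf5 lost theirs without either wild type male, either wild type female or replicate 2 of the mutants, and Cht4 also without replicate 1 of the mutants (adjusted p up to 0.144). The median of the 16 was 0.09. Idgf3, a chitinase-like growth factor, read 9.74 and 9.04 in wild type and 11.66 and 10.62 in the mutants. Without replicate 2 of the mutants its difference was 2.27. The chitin deacetylase Cda4 fell from 6.38 and 6.63 to 4.98 and 5.17 (-1.43 ± 0.18, adjusted p = 0.0179), the 1 call among 11 genes of chitin synthesis and modification. It ended without either wild type male or without replicate 1 of the mutants (adjusted p up to 0.0735).

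Of 85 cuticle protein genes 3 fell (3.53% called, against 1.36% of all genes) in the fit on all arrays. Both mutants lay below both wild types for 27 of them (31.8%, against 19.4% of all genes) and above both for 9 (10.6%, against 23.5% of all genes). The median was -0.10. Median levels of the list were 4.39 and 4.33 in the wild type males and 4.11 and 4.24 in the mutants. These lay below the male array medians, so many members were near background. The Y-linked genes, all at background, gave 28.6% below and 0% above. The part of background in the cuticle shares was not tested. Cpr67Fa2 read 6.15 on both wild type arrays and 4.47 and 4.37 in the mutants (-1.73 ± 0.16, adjusted p = 0.00604), and its call held whichever array was left out. Cpr97Ea fell most, from 7.44 and 9.13 to 4.50 and 4.91 (-3.58 ± 0.51, adjusted p = 0.0302). Cpr66Cb read 7.05 and 7.84 against 5.74 and 5.66 (-1.74 ± 0.27, adjusted p = 0.0389). The call of Cpr97Ea held only without a wild type male and that of Cpr66Cb only without replicate 1 of the wild type males (adjusted p up to 0.13 otherwise). Vajk2 read 9.15 and 10.53 in wild type and 12 and 12.12 in the mutants (2.21, limma adjusted p = 0.0629). Without replicate 1 of the wild type males its difference was 1.53, and without replicate 2 it was 2.90. Vajk3, at 7.76 and 10.02 against 11.25 and 11.16, differed by 3.44 without replicate 2 of the wild type males. Cpr47Ee differed by -2.92 without replicate 1 of the wild type males.

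Of 81 cytochrome P450 genes 3 fell and none was called higher in the fit on all arrays (3.70% called, against 1.36% of all genes). The median was -0.11. Both mutants lay below both wild types for 28 of them (34.6%, against 19.4% of all genes). They lay above both for 8 (9.88%, against 23.5% of all genes). Median levels of the list were 4.59 and 4.21 in the wild type males and 4.24 and 4.30 in the mutants. These lay below the male array medians, so many members were near background. The Y-linked genes, all at background, gave 28.6% below and 0% above. The part of background in the P450 shares was not tested. Cyp310a1 read 6.51 and 6.72 in wild type and 5.16 and 4.89 in the mutants (-1.59 ± 0.16, adjusted p = 0.008), a call that held whichever array was left out. Cyp12c1 fell by 1.64 and Cyp9c1 by 1.08, calls that ended under 5 and 8 of the 8 omissions (adjusted p up to 0.116). Among 69 glutathione and UDP-glycosyl transferases Ugt301D1 fell, from 10.97 and 11.21 to 8.88 and 9.64 (-1.83 ± 0.30, adjusted p = 0.0474). It kept its call only without replicate 2 of the mutants (adjusted p up to 0.144 otherwise). Some P450 levels parted the wild type males, and omitting one of them gave calls in both directions. Cyp12d1-d read 9.35 and 3.88 in wild type and 9.48 and 8.97 in the mutants, and was called higher without replicate 1 of the wild type males (5.34 ± 0.40, adjusted p = 0.0077). Cyp9b2, at 8.25 and 9.91 against 11.35 and 10.99, was called higher without replicate 2 of the wild type males (2.92 ± 0.23, adjusted p = 0.00845). Cyp28a5 read 6.96 and 4.23 in wild type and 4.0 and 4.01 in the mutants, and was called lower without replicate 2 of the wild type males (-2.96 ± 0.15, adjusted p = 0.00245), as was Cyp4e3 (-1.79 ± 0.16, adjusted p = 0.0149). Cyp6a8 was called higher without replicate 2 of the mutant males (2.15 ± 0.32, adjusted p = 0.047), and so were the glutathione transferase genes GstE2 (2.64 ± 0.34, adjusted p = 0.0299) and GstE14 (1.28 ± 0.17, adjusted p = 0.0346). GstE1 was called lower without either mutant female (-2.63 ± 0.27, adjusted p = 0.0238).

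Among 17 hemocyte markers eater, a receptor with which blood cells take up bacteria, was the one called (5.88%, against 1.36% of all genes). It read 4.88 and 4.40 in the wild type males and 6.51 and 6.72 in the mutants (1.98 ± 0.18, limma adjusted p = 0.00602), and the call held whichever array was left out. PPO1 and PPO2, prophenoloxidases of crystal cells that make melanin, were higher on both mutant arrays without a call. PPO1 read 6.54 and 6.63 against 8.40 and 8.93 (2.08, adjusted p = 0.291), and PPO2 7.61 and 7.65 against 9.32 and 9.67 (1.86, adjusted p = 0.25). Both were called when either wild type female was left out, which changed the estimate of the spread and not the male difference. The markers did not all go one way, since Hml, made by plasmatocytes, read 5.37 and 4.88 in wild type and 4.16 and 4.75 in the mutants. The median of the 17 was 0.80 in replicate 1 and 0.32 in replicate 2.

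The 13 measured antimicrobial peptide genes and 19 immune signalling genes had no call, with medians of 0.12 and 0.21. A further 9 names on the first list were not measured: Dpt, DptA, AttA, AttB, AttC, CecA1, CecA2, CecC and Dro. The absence of calls thus says nothing about those genes. Atg1, the kinase that starts autophagy, was the one call among 21 autophagy genes, 9.34 on both wild type arrays against 10.44 and 10.45 (1.10 ± 0.13, adjusted p = 0.0167). It ended without either wild type male or without replicate 2 of the mutants (adjusted p up to 0.0731). Tsf3, of the iron-binding transferrins, fell from 8.29 and 8.15 to 6.87 and 6.97 (-1.30 ± 0.15, adjusted p = 0.0136), the one call among 9 genes of iron handling. It ended without replicate 1 of the wild type males (adjusted p = 0.0666). Of the 41 lists 21 had no call in males, among them ribosomal proteins, the proteasome, larval muscle, fat body, cell cycle, heat shock and homeotic genes. Some of these were measured only in part. Not measured were lab, Ubx, abd-A and Abd-B of the homeotic list and Lsp1alpha, Lsp1beta and Lsp1gamma of the fat body list. The same held for 7 larval muscle names, Mhc and Mef2 among them, 7 cell cycle names and Hop of the heat shock list.

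The mutant males differed from each other more than any other pair of replicates. Across probe sets they correlated at r = 0.977, against 0.985 for the wild type males, 0.99 for wild type females and 0.988 for mutant females. At least 4-fold differences between the 2 arrays of a group were seen for 104 genes in mutant males, 22 in wild type males, 37 in mutant females and 19 in wild type females. At least 8-fold differences were seen for 56 genes in mutant males, 55 of them higher in replicate 1 and 1, Cyp6g1, higher in replicate 2. CG10799 was the one called gene among the 56.

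Genes of the Turandot and Bomanin families, small secreted proteins induced by stress and infection, stood out among the 55, and the examples here were chosen after their values were seen. TotB read 4.23 and 4.75 in the wild type males, 13.54 in replicate 1 of the mutants and 3.79 in replicate 2. TotC read 3.77 and 3.88 in wild type, 12.16 in replicate 1 and 3.58 in replicate 2. CG42792 read 3.81 and 3.75, then 13.63 and 3.69, and lectin-24A, a C-type lectin, 3.59 and 3.71, then 12.76 and 3.62. Each thus went from background to among the brightest signals in 1 mutant male and remained at background in the other. On the female arrays TotC, CG42792 and lectin-24A read at most 4.76, while TotB read 8.0 in replicate 2 of the mutant females and at most 5.35 on the other 3.

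Over all 14 Bomanin and Turandot genes the median difference was 2.11 with no call, and the median relative to wild type males was 3.99 in replicate 1 and 0.04 in replicate 2. Without replicate 2, 4 of them were called higher, TotB, TotF, TotC and TotZ. Without replicate 1 none was, and the median was 0.04. Replicate 2 of the mutant females also stood apart: the median level of the 14 was 7.43 there, 4.18 in replicate 1 of the mutant females and 8.78 in replicate 1 of the mutant males. BomS2 read 11.58 and BomT2 11.53 in that female, against 9.61 and 10.26 in replicate 1 of the mutant males. Markers of lamellocytes, the flat blood cells that encapsulate parasites, were high in the same male: atilla read 4.85 and 4.54 in wild type, 10.37 in replicate 1 and 5.23 in replicate 2. PPO3 read 3.87 and 3.97 in wild type, 8.78 in replicate 1 and 4.10 in replicate 2. In replicate 2 of the mutant females atilla read 8.94 and PPO3 6.18, against 5.85 and 4.19 in replicate 1. The mutant males did not share 1 level for the genes named here, nor did the mutant females for BomS2, BomT2, atilla and PPO3. TotZ was at background in both mutant females, at 3.82 and 3.74.

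**Figure D4:**
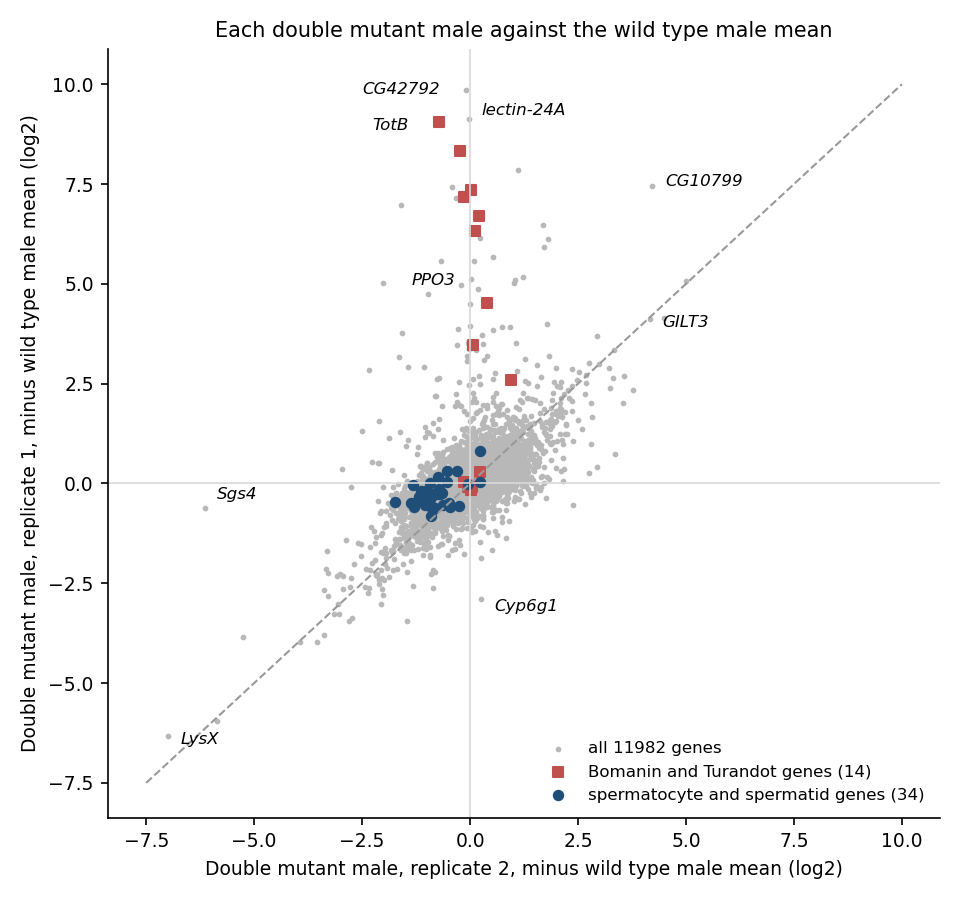
Log2 intensity minus the wild type male mean for replicate 2 (horizontal axis) and replicate 1 (vertical axis) of the double mutant males, over 11982 genes; squares are Bomanin and Turandot genes, dark circles spermatocyte and spermatid genes, and the dashed line marks equal values. LysX and GILT3 lie near the line, while TotB, CG42792 and lectin-24A lie high in replicate 1 and near 0 or below in replicate 2.

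Sequence that flanks a mutated allele travels with it, so calls among neighbours of the mutated genes were counted. Of the 100 nearest measured genes around Bap170, 50 on each side, 1 was called (1%), and of the 100 around polybromo 3 were (3%), against 1.36% of all genes. The neighbour of Bap170 was mle, the RNA helicase maleless of the dosage compensation complex. It read 4.87 and 5.21 in wild type and 6.56 and 6.17 in the mutants (1.32 ± 0.18, limma adjusted p = 0.0272). mle was also the one call among 15 sex determination and dosage compensation genes, whose median was 0.10, and msl-2 differed by -0.23 ± 0.15. The call of mle held only without replicate 2 of either male group (adjusted p up to 0.116 otherwise).

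Around polybromo the called genes were Hr96, Ude and CG13639. CG13639 read 7.08 and 7.05 in wild type and 8.58 and 8.56 in the mutants (1.51 ± 0.19, adjusted p = 0.019). That call ended without any one male array (adjusted p up to 0.0914). The part of linked sequence in these 4 differences was not tested.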

How the data were processed

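Single white prepupae, 2 per sex and genotype, were measured on 8 Affymetrix arrays. The deposited values are intensities on a linear scale, processed with RMA per the submitters' processing notes; its version, a genome build and any later scaling are not stated in those notes. They were taken to log2 for this work, and 183 control probe sets were left out of 18952. One gene symbol was given for 13647 probe sets, several for 402 and none for 4720; for each of 11982 genes the brightest probe set, by its mean over all 8 arrays, was kept, and no coordinates are printed. Group means of all 8 arrays were fitted with limma 3.58.1 (R 4.3.3, lmFit and eBayes, 4 residual and 3.03 prior degrees of freedom, two-sided). The contrast was double mutant minus wild type within males, and p-values were adjusted by Benjamini-Hochberg over 18769 probe sets.

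Tested on simulated data, in which 200 of 18769 probe sets changed, the male contrast recovered 2.3% of log2 changes of 0.5 and 53.9% of 1. It recovered 96.2% of 2 and 99% of 3, and 5.83% of calls were false. The noise was independent and normal, with the fitted variances and 1 mean for all groups. Deviations shared by many genes of an animal were not simulated, so these shares may not hold for the real arrays. Gene lists are described by counts and medians, without a set test. Genes named by rule are the mutated genes, the 15 largest called rises and falls and up to 3 called members of each list. For some lists without a call, but not all, the member with the lowest p is named. The 5 called genes with the lowest interaction p, called neighbours of the mutated genes and markers of sex follow. All metallothioneins, lysozymes and GILT genes are named, and 5 spermatocyte genes with the largest gap between mutant males. Members named beside these were chosen after their values were seen. The members and lists were chosen with earlier results of these data known. Alternatives covered scaling, an offset before log2, the removal of dim probe sets, other variance priors, a replicate block, 1 probe set per gene, a males-only fit, array weights, a 2-fold limit and leaving out each array.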

Additional observations from a re-analysis of the deposited data

How the results depend on the processing

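Counts of male calls depended most on which arrays gave the spread. Against 197 probe sets (92 higher, 105 lower), adding 16 before log2 gave 111 (52 and 59), array weights 59 higher, and the males-only fit 23 (11 and 12). Leaving out 1 array gave 105 to 272 probe sets, 30 to 100 higher and 60 to 185 lower. The interaction called 1 probe set with 16 added, 5 with a variance trend, 9 with a robust trend, and 0 to 20 without 1 array. Calls near Bap170 were 0 with 16 added, without probe sets of mean log2 under 6, with the replicate block and in the males-only fit, and 2 with either variance trend; near polybromo they were 0 in the males-only fit. Without 1 array they ranged from 0 to 1 near Bap170 and from 1 to 3 near polybromo.

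The labels do not say whether replicate numbers pair these single animals. Across probe sets, deviations of same-numbered arrays correlated at -0.178 between the male groups. Between mutant males and the female groups the values were -0.303 and -0.304. The pairs without mutant males gave 0.184, 0.219 and 0.413. The cause of this pattern was not tested. The replicate block gave 183 probe sets. Crossing the numbers of the mutant males, chosen after seeing the data, gave 312 (164 higher).

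Signs changed for uncalled genes near 0. Subtracting array medians gave 0.00 for ORY and Yp3; quantile normalization gave 0.01 for kl-5 and ORY and 0.03 for Yp3. Without 1 array, differences ranged from -0.08 to 0.19 for GILT1, -0.26 to 0.22 for GILT2, -0.45 to 0.39 for MtnD, -0.10 to 0.64 for Sxl, -0.02 to 0.21 for Yp1, -0.24 to 0.29 for Yp2 and -0.07 to 0.03 for Yp3. Those of the Y-linked genes ranged from -0.16 to 0.01 for kl-2, -0.06 to 0.01 for kl-5, -0.11 to 0.08 for ORY and 0.00 to 0.13 for Ppr-Y, and those of spermatid genes from -0.93 to 0.00 for djl and -0.75 to 0.15 for Prosbeta4R1. No called gene that the text names by rule changed sign under any alternative. The cause of these shifts was not tested. With 2 animals a group, 2.3% of log2 changes of 0.5 and 53.9% of those of 1 were called in the simulation. A missing call is thus no sign of an equal level.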

Other observations

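Called genes outside the lists, chosen after their values were seen, included a pair of tetraspanins, small membrane proteins, from the tandem cluster Tsp42E. Tsp42Ei read 5.43 and 5.37 in the wild type males and 6.99 and 7.24 in the mutants (1.71 ± 0.16, limma adjusted p = 0.00604, held whichever array was left out). Tsp42Er read 8.23 and 8.39 against 9.62 and 9.46 (1.23 ± 0.13, adjusted p = 0.0103, ended without 1 of the 8 arrays). Other members of the cluster, such as Tsp42Ee with 11.06 and 10.84 against 11.17 and 11.16, had no call. In females Tsp42Er differed by 1.37 and Tsp42Ei by 0.36.

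Gnpnat, an enzyme on the way to the sugar donor of chitin, fell from 9.90 and 10.05 to 8.52 and 8.50 (-1.47 ± 0.12, adjusted p = 0.00406), a call that held whichever array was left out. Prip, an aquaporin, fell from 12.27 and 12.16 to 10.81 and 11.05 (-1.28 ± 0.14, adjusted p = 0.0108). bw, a transporter of eye pigment precursors, rose from 6.02 and 6.44 to 7.79 and 8.21 (1.77 ± 0.24, adjusted p = 0.0248). nej, the fly CBP acetyltransferase, rose from 6.06 and 6.58 to 8.86 and 8.42 (2.32 ± 0.27, adjusted p = 0.0147). The calls of Prip and nej ended in 1 and that of bw in 4 of the 8 fits without 1 array. Obp56a, named for odorant binding proteins, was the 1 gene called in males alone but not with all arrays. It read 7.39 and 7.64 in wild type and 4.90 and 5.19 in the mutants (adjusted p = 0.051 with all arrays).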
